A study of Saccharomyces cerevisiae with 14 samples.

Results

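The 10 genes described here were grouped as thioredoxin and glutathione redox genes of *Saccharomyces cerevisiae*, with the flavohemoglobin gene *YHB1* among them. They were chosen by name, and each was read from the probe set that the array annotation names for it. They are *TRX1* (YLR043C), *TRX2* (YGR209C), *TRR1* (YDR353W), *GRX1* (YCL035C), *GRX2* (YDR513W), *GLR1* (YPL091W), *GSH1* (YJL101C), *GPX1* (YKL026C), *GPX2* (YBR244W) and *YHB1* (YGR234W). They make up 10 of the 5449 genes named on the array, and all 10 were among the 5443 genes tested. Messenger RNA was measured on 14 Affymetrix yeast arrays in 3 strains with different thermotolerance, after 30 min at 39°C or without heat at 30°C. NFRI 3236 is the thermotolerant strain, NFRI 3155 is the thermosensitive strain and S288C is the standard laboratory strain. For either NFRI strain there are 2 arrays a temperature, and for S288C there are 3. All cells were growing exponentially in rich glucose medium, and no strain is labelled as carrying an engineered allele. The study compared the strains to find genes whose response to 39°C follows thermotolerance.

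Thioredoxins and glutaredoxins are small proteins that reduce disulfide bonds in other proteins. Oxidised thioredoxin is recharged by thioredoxin reductase. Glutaredoxin is recharged by glutathione, which glutathione reductase keeps reduced, and NADPH feeds both reductases. Peroxidases use these systems to remove hydrogen peroxide and lipid hydroperoxides, which form more readily in heated, respiring or oxidant-treated yeast.

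A level is the signal of a probe set divided by the 75th percentile of all probe sets on the same array. A level of 1 thus equals that percentile. Only 5498 of the 10928 probe sets name a single *S. cerevisiae* gene, so among the named genes a level of 1 lies near the middle. *GSH1* at 1.07 stood at percentile 55.2 of those genes on S288C 30°C replicate 1. *YHB1* at 0.957 stood at percentile 51.6 on NFRI 3236 39°C replicate 2. A gene changed where limma gave a Benjamini-Hochberg adjusted p under 0.05 over all 5443 genes. Errors of log2 differences are standard errors (SE) of the fit. The methods describe duplicate experiments, and the labels do not say which arrays share a culture, so the p-values measure the spread between these arrays. Each array sums a whole culture, so a change in some cells and a smaller change in every cell cannot be told apart. Every one of the 10 genes was above background on all 14 arrays.

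A few features of the arrays bear on the results. The 75th percentile signal ranged between 95.7 and 438 over the 14 arrays, and 5144 to 5336 genes were above background. In unheated S288C, 0, 0 and 1 of the 12 poly-A labelling controls exceeded background, against 8 to 12 elsewhere, so these 3 arrays stood apart. *WBP1*, whose 3′ over 5′ signal serves as a check of RNA integrity, had a ratio of 10.9 on replicate 2 of heated NFRI 3236 and of 1.41 to 5.86 on the remaining arrays. The same ratio of *ACT1* was 1.27 on that array and was highest on the 3 unheated S288C arrays, at 1.84 to 2.05, against 1.16 to 1.58 on the others. The heat markers *HSP26*, *SSA4* and *HSP12* rose in all 3 strains. The labels give no mating type or ploidy. *STE3*, the receptor for a-factor, was above background on 1 of 4 NFRI 3236 arrays, 3 of 4 NFRI 3155 arrays and 6 of 6 S288C arrays. *STE2*, the receptor for alpha-factor, was above background on all arrays of each strain, as were *SAG1* and *MF(ALPHA)2* of the alpha-specific genes. Of 5 a-specific genes, 5 were above background on all arrays of both S288C groups. In heated NFRI 3155 4 were, and in unheated NFRI 3155 and both NFRI 3236 groups 3 were. Of 4 alpha-specific genes, 4 were in heated NFRI 3155 and unheated S288C, 3 in heated S288C and 2 in the other groups. The summed level of 4 haploid-specific genes at 39°C was 0.572 to 0.595 in NFRI 3236, 0.472 to 0.714 in NFRI 3155 and 1.55 to 1.93 in S288C, and at 30°C it was 0.324 to 0.491 in NFRI 3236, 0.284 to 0.315 in NFRI 3155 and 0.559 to 0.669 in S288C. The part of the poly-A controls, RNA integrity or haploid genes in the results below was not tested.

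**Figure D1:**
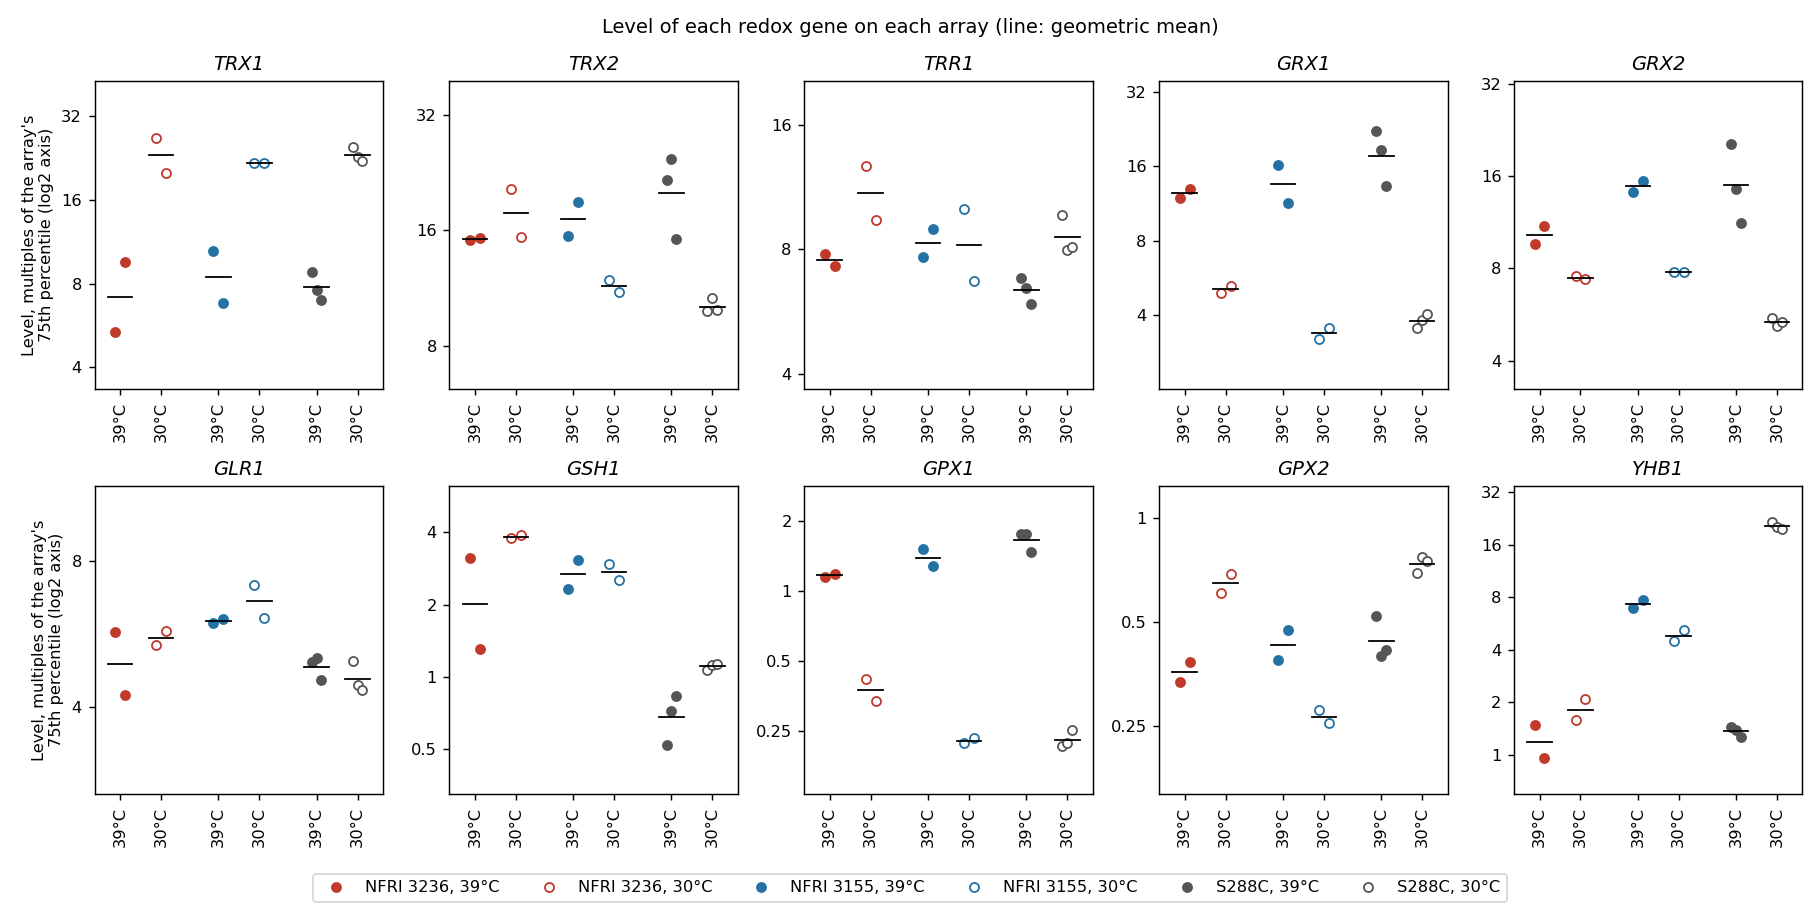
Level of each gene on each of the 14 arrays, as multiples of the array's 75th percentile on a log2 axis. Filled points are 39°C, open points are 30°C and black lines are geometric means. *TRX1* was lower and *GRX1* and *GPX1* were higher at 39°C in all 3 strains, and *YHB1* was near 20 only in S288C at 30°C.

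The 39°C treatment changed 5 of the 10 genes in NFRI 3236, 5 in NFRI 3155 and 8 in S288C. In NFRI 3236, 2 rose and 3 fell, where 39.2% of all genes were called (15.7% higher and 23.5% lower). In NFRI 3155, 4 rose and 1 fell, where 42.2% of all genes were called (18.1% higher and 24.1% lower). In S288C, 4 rose and 4 fell, where 53.4% of all genes were called (25.2% higher and 28.2% lower). The median log2 change of the 10 genes was −0.38 in NFRI 3236, 0.59 in NFRI 3155 and −0.17 in S288C, against −0.10, −0.08 and −0.04 over all genes. *GRX1* and *GPX1* rose in all 3 strains, as did 9.06% of all genes, and *TRX1* fell in all 3, as did 13.7%. *TRR1* and *GLR1* were called in no strain, as were 30.1% of all genes. With the methods' t-test in place of limma, none of the 10 genes was called in either NFRI strain after Benjamini-Hochberg adjustment, nor was any other gene, while 8 of the 10 and 44.9% of all genes were called in S288C. None of the 10 genes changed sign, where it was called in a strain or between strains, under any of the other scalings, filters or fits tried. Filters, variance settings and t-tests do not alter the estimated difference. Only other scalings, adding 16 to each signal or a block on replicate number could have changed a sign.

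*TRX1* encodes a cytosolic thioredoxin. Its level was 5.35 and 9.53 in NFRI 3236 at 39°C, against 26.8 and 20.03 at 30°C. It was 10.5 and 6.81 in NFRI 3155 at 39°C, against 21.7 and 21.7 at 30°C. In S288C it was 8.80, 7.57 and 6.99 at 39°C, against 24.7, 22.8 and 22.1 at 30°C. No array at 39°C reached the level of any array at 30°C. The log2 change was −1.70 ± 0.29 in NFRI 3236 (adjusted p = 0.000532), −1.36 ± 0.29 in NFRI 3155 (adjusted p = 0.00195) and −1.58 ± 0.23 in S288C (adjusted p = 8.63e-05). Heated cells thus held 0.308 times the unheated level in NFRI 3236, 0.390 times in NFRI 3155 and 0.335 times in S288C. The fall differed from that in S288C by −0.12 (95% interval −0.92 to 0.68) in NFRI 3236 and by 0.22 (−0.58 to 1.02) in NFRI 3155. Without any scaling of the arrays the fall was no longer called in NFRI 3236 (−0.86, adjusted p = 0.156) or NFRI 3155 (−1.14, adjusted p = 0.0829), and with quantile normalization it was not called in NFRI 3155 (−0.71, adjusted p = 0.0805). By the methods' t-test the fall in NFRI 3236 was not called either, with or without adjustment.

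*TRX2* encodes the other cytosolic thioredoxin, a known target of the oxidative stress regulator Yap1. In NFRI 3236 its level was 15.1 and 15.2 at 39°C, against 20.5 and 15.4 at 30°C. In NFRI 3155 it was 15.5 and 19.0 at 39°C, against 11.9 and 11.1 at 30°C. In S288C it was 21.6, 24.5 and 15.2 at 39°C, against 9.86, 10.6 and 9.88 at 30°C. The heated arrays of S288C and NFRI 3155 were all above the unheated ones. In NFRI 3236 both heated arrays lay just below the unheated array at 15.4 and further below that at 20.5. *TRX2* rose in S288C (log2 change 0.99 ± 0.20, 1.98-fold, adjusted p = 0.00099). It was not called in NFRI 3155 (0.58 ± 0.24, adjusted p = 0.0726) or NFRI 3236 (−0.23 ± 0.24, adjusted p = 0.497).

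The *TRX2* response was smaller in NFRI 3236 than in S288C by 1.21 ± 0.31 on the log2 scale (adjusted p = 0.0299). This call rested on several choices. It was lost without any one of 7 arrays, namely S288C 30°C replicates 1, 2 and 3, S288C 39°C replicate 2, NFRI 3236 30°C replicate 1 and NFRI 3236 39°C replicates 1 and 2, with adjusted p up to 0.118. It was also lost with quantile normalization (−0.65, adjusted p = 0.0811), with scaling to the array median (−0.86, adjusted p = 0.111), with the replicate number as a block (adjusted p = 0.0620) and without scaling (−0.98, adjusted p = 0.529). Under quantile normalization *TRX2* was called higher at 39°C in all 3 strains, by 0.92 in NFRI 3236 (adjusted p = 0.00172), which is the opposite sign to the value above, by 1.42 in NFRI 3155 (adjusted p = 4.99e-05) and by 1.57 in S288C (adjusted p = 2.24e-06). By its rank among the genes of an array, *TRX2* stood at percentiles 97.5 and 97.5 in heated NFRI 3236 cells, against 94.3 and 93.8 in unheated ones.

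*TRR1* encodes the cytosolic thioredoxin reductase. In NFRI 3236 its level was 7.80 and 7.29 at 39°C, against 12.7 and 9.40 at 30°C. In NFRI 3155 it was 7.67 and 8.95 at 39°C, against 10.03 and 6.72 at 30°C. In S288C it was 6.81, 6.43 and 5.89 at 39°C, against 9.67, 7.97 and 8.08 at 30°C. The heated arrays were below the unheated ones in NFRI 3236 and S288C and overlapped them in NFRI 3155. None of the 3 changes was called, at −0.54 ± 0.24 (adjusted p = 0.0909), 0.01 ± 0.24 (adjusted p = 0.968) and −0.42 ± 0.19 (adjusted p = 0.0820) in NFRI 3236, NFRI 3155 and S288C. Scaling to the array median, which lowered the change of all genes in S288C by 0.24, gave a called fall of 0.67 there (adjusted p = 0.0120).

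*GRX1* and *GRX2* encode the cytosolic dithiol glutaredoxins. In NFRI 3236 *GRX1* was at 11.95 and 12.9 at 39°C, against 4.92 and 5.23 at 30°C. In NFRI 3155 it was at 16.2 and 11.4 at 39°C, against 3.21 and 3.55 at 30°C. In S288C it was at 22.2, 18.7 and 13.3 at 39°C, against 3.53, 3.83 and 4.02 at 30°C. The groups were separate in every strain. *GRX1* rose 2.45-fold in NFRI 3236 (log2 change 1.29 ± 0.25, adjusted p = 0.00141), 4.02-fold in NFRI 3155 (2.01 ± 0.25, adjusted p = 3.75e-05) and 4.66-fold in S288C (2.22 ± 0.21, adjusted p = 1.28e-06). Among all genes these changes stood at percentiles 93.3, 95.8 and 96.5. The smaller value in NFRI 3236 differed from that in S288C by −0.93 (95% interval −1.63 to −0.23), which was not called (adjusted p = 0.0852), although without S288C 39°C replicate 3 it was (−1.13, adjusted p = 0.0365).

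*GRX2* was at 9.64 and 11.05 in NFRI 3236 at 39°C, against 7.54 and 7.40 at 30°C. In NFRI 3155 it was at 14.2 and 15.5 at 39°C, against 7.78 and 7.82 at 30°C. In S288C it was at 20.4, 14.6 and 11.2 at 39°C, against 5.53, 5.18 and 5.36 at 30°C. Every heated array was above every unheated array of its strain. *GRX2* rose 1.90-fold in NFRI 3155 (log2 change 0.93 ± 0.24, adjusted p = 0.00811) and 2.79-fold in S288C (1.48 ± 0.20, adjusted p = 3.86e-05). In NFRI 3236 the change of 0.47 ± 0.24 was not called (adjusted p = 0.150), but it was with quantile normalization (1.10, adjusted p = 0.00054) and without scaling (1.30, adjusted p = 0.0245). The rise in NFRI 3155 was not called with median scaling (0.65, adjusted p = 0.0628) or without scaling (1.14, adjusted p = 0.0628). The difference between the responses of NFRI 3236 and S288C, −1.01 ± 0.32, just missed the threshold (adjusted p = 0.0583) and passed it with quantile normalization (−0.90, adjusted p = 0.0237) and without S288C 39°C replicate 3 (−1.22, adjusted p = 0.0235).

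*GLR1* encodes glutathione reductase. Its level was 5.71 and 4.24 in NFRI 3236 at 39°C, against 5.37 and 5.74 at 30°C. In NFRI 3155 it was 5.97 and 6.08 at 39°C, against 7.15 and 6.11 at 30°C. In S288C it was 4.95, 5.06 and 4.56 at 39°C, against 4.97, 4.45 and 4.34 at 30°C. Heated and unheated arrays overlapped in NFRI 3236 and S288C. The log2 change was −0.17 (95% interval −0.61 to 0.26), −0.13 (−0.57 to 0.30) and 0.08 (−0.27 to 0.44) in NFRI 3236, NFRI 3155 and S288C, and none was called.

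*GSH1* encodes gamma-glutamylcysteine synthetase, which catalyses the rate-limiting step of glutathione synthesis. In NFRI 3236 its level was 3.12 and 1.31 at 39°C, against 3.78 and 3.90 at 30°C. In NFRI 3155 it was 2.32 and 3.08 at 39°C, against 2.96 and 2.53 at 30°C. In S288C it was 0.523, 0.722 and 0.834 at 39°C, against 1.07, 1.12 and 1.14 at 30°C. The lowest NFRI array was above the highest S288C array. *GSH1* fell in NFRI 3236 (log2 change −0.93 ± 0.34, adjusted p = 0.0451) and in S288C (−0.70 ± 0.28, adjusted p = 0.0468), and its change in NFRI 3155 was −0.03 ± 0.34 (adjusted p = 0.946). Both falls were marginal. That in NFRI 3236 was −0.30 (adjusted p = 0.485) without 39°C replicate 2, the array with the *WBP1* ratio of 10.9, and was lost without any one of 9 arrays, which were both NFRI 3155 arrays at 30°C, the 3 S288C arrays at 30°C, S288C 39°C replicate 2, both NFRI 3236 arrays at 30°C and NFRI 3236 39°C replicate 2. That in S288C was lost without any one of 9 arrays too, namely all 7 arrays at 30°C and S288C 39°C replicates 1 and 2, with adjusted p up to 0.166. Both calls were also lost without scaling (−0.09 and −0.10) and with the replicate block (adjusted p = 0.0526 and 0.0523), and that in NFRI 3236 with only its own arrays in the fit (adjusted p = 0.131), quantile normalization (adjusted p = 0.100) and median scaling (adjusted p = 0.0632).

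*GPX1* encodes a glutathione peroxidase of the phospholipid hydroperoxide type. In NFRI 3236 its level was 1.15 and 1.19 at 39°C, against 0.419 and 0.337 at 30°C. In NFRI 3155 it was 1.51 and 1.28 at 39°C, against 0.221 and 0.232 at 30°C. In S288C it was 1.76, 1.76 and 1.47 at 39°C, against 0.215, 0.221 and 0.252 at 30°C. Heated and unheated arrays were well apart in each strain. *GPX1* rose 3.10-fold in NFRI 3236 (log2 change 1.63 ± 0.20, adjusted p = 5.44e-05), 6.14-fold in NFRI 3155 (2.62 ± 0.20, adjusted p = 7.29e-07) and 7.25-fold in S288C (2.86 ± 0.16, adjusted p = 2.17e-08). These changes stood at percentiles 95.9, 97.6 and 98.1 of all genes.

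The *GPX1* response was 1.22 ± 0.26 smaller on the log2 scale in NFRI 3236 than in S288C (adjusted p = 0.0131), and the unheated level of *GPX1* was higher in NFRI 3236. The difference of responses was not called without NFRI 3236 30°C replicate 1 (−1.07, adjusted p = 0.0568), with median scaling (−0.87, adjusted p = 0.0547), with the replicate block (adjusted p = 0.0540) or without scaling (−0.99, adjusted p = 0.539). Between NFRI 3236 and NFRI 3155 the response differed by −0.98 (95% interval −1.60 to −0.37), which was not called (adjusted p = 0.102).

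*GPX2* encodes a peroxidase of the same family that also takes electrons from thioredoxin. Its level was 0.335 and 0.384 in NFRI 3236 at 39°C, against 0.608 and 0.689 at 30°C. In NFRI 3155 it was 0.388 and 0.476 at 39°C, against 0.278 and 0.256 at 30°C. In S288C it was 0.520, 0.398 and 0.417 at 39°C, against 0.692, 0.772 and 0.751 at 30°C. The unheated NFRI 3155 arrays were the lowest of the 14, and the heated arrays of the 3 strains lay close together. *GPX2* fell in NFRI 3236 (log2 change −0.85 ± 0.21, 0.554 times, adjusted p = 0.00574) and in S288C (−0.74 ± 0.17, 0.599 times, adjusted p = 0.00245) and rose in NFRI 3155 (0.69 ± 0.21, 1.61-fold, adjusted p = 0.0167). It was the only one of the 10 genes called in opposite directions in different strains, as were 1.93% of all genes. Without scaling neither fall was called (−0.01 in NFRI 3236 and −0.14 in S288C). The rise in NFRI 3155 was not called with median scaling (0.41, adjusted p = 0.207), without scaling (0.90, adjusted p = 0.171), with only the arrays of NFRI 3155 in the fit (adjusted p = 0.0675), or without NFRI 3155 30°C replicate 1, 30°C replicate 2 or 39°C replicate 2 (adjusted p up to 0.101).

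The test of the difference itself gave 1.43 ± 0.27 between the *GPX2* responses of NFRI 3155 and S288C (adjusted p = 0.00429) and −1.54 ± 0.29 between those of NFRI 3236 and NFRI 3155 (adjusted p = 0.0136). Neither was called without scaling (1.04 and −0.92). The second of these was also not called with median scaling (−1.16, adjusted p = 0.0909), with the replicate block (adjusted p = 0.0668), with only the arrays compared in the fit (adjusted p = 0.0650), or without NFRI 3155 30°C replicate 1 or 2 or NFRI 3236 30°C replicate 2 (adjusted p up to 0.0712). Between NFRI 3236 and S288C the *GPX2* responses differed by −0.11 (95% interval −0.69 to 0.46).

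*YHB1* encodes flavohemoglobin, which detoxifies nitric oxide. In NFRI 3236 its level was 1.49 and 0.957 at 39°C, against 1.58 and 2.08 at 30°C. In NFRI 3155 it was 6.94 and 7.69 at 39°C, against 4.48 and 5.19 at 30°C. In S288C it was 1.45, 1.39 and 1.27 at 39°C, against 21.8, 20.4 and 19.6 at 30°C. The unheated S288C arrays were the highest of the 14, and the heated S288C arrays lay within the range of the NFRI 3236 arrays. *YHB1* fell to 0.0666 times its unheated level in S288C (log2 change −3.91 ± 0.19, adjusted p = 4.66e-09), which ranked 5434 of 5443 genes from the highest rise. Leaving out any array kept this value between −3.95 and −3.86. In NFRI 3236 the change was −0.60 ± 0.23 (adjusted p = 0.0570) and in NFRI 3155 it was 0.60 ± 0.23 (adjusted p = 0.0551). Both lay close to the threshold. With 16 added to each signal, or with a variance trend, both were called, and single arrays also decided them. The fall in NFRI 3236 was called without NFRI 3236 39°C replicate 1 (−0.92, adjusted p = 0.0133), and the value in NFRI 3155 was called without S288C 39°C replicate 1 or either NFRI 3236 array at 39°C.

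The *YHB1* response differed from that in S288C by 3.31 ± 0.30 in NFRI 3236 (adjusted p = 4.89e-05) and by 4.51 ± 0.30 in NFRI 3155 (adjusted p = 7.43e-06), and both differences were called under every alternative run. Both are set against the 3 unheated S288C arrays, which had the low poly-A controls and the highest *ACT1* ratios. The difference between NFRI 3236 and NFRI 3155, −1.20 ± 0.33, was not called (adjusted p = 0.0867), but it was with quantile normalization (−1.43, adjusted p = 0.0348) and without NFRI 3236 39°C replicate 1 (−1.52, adjusted p = 0.0205).

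**Figure D2:**
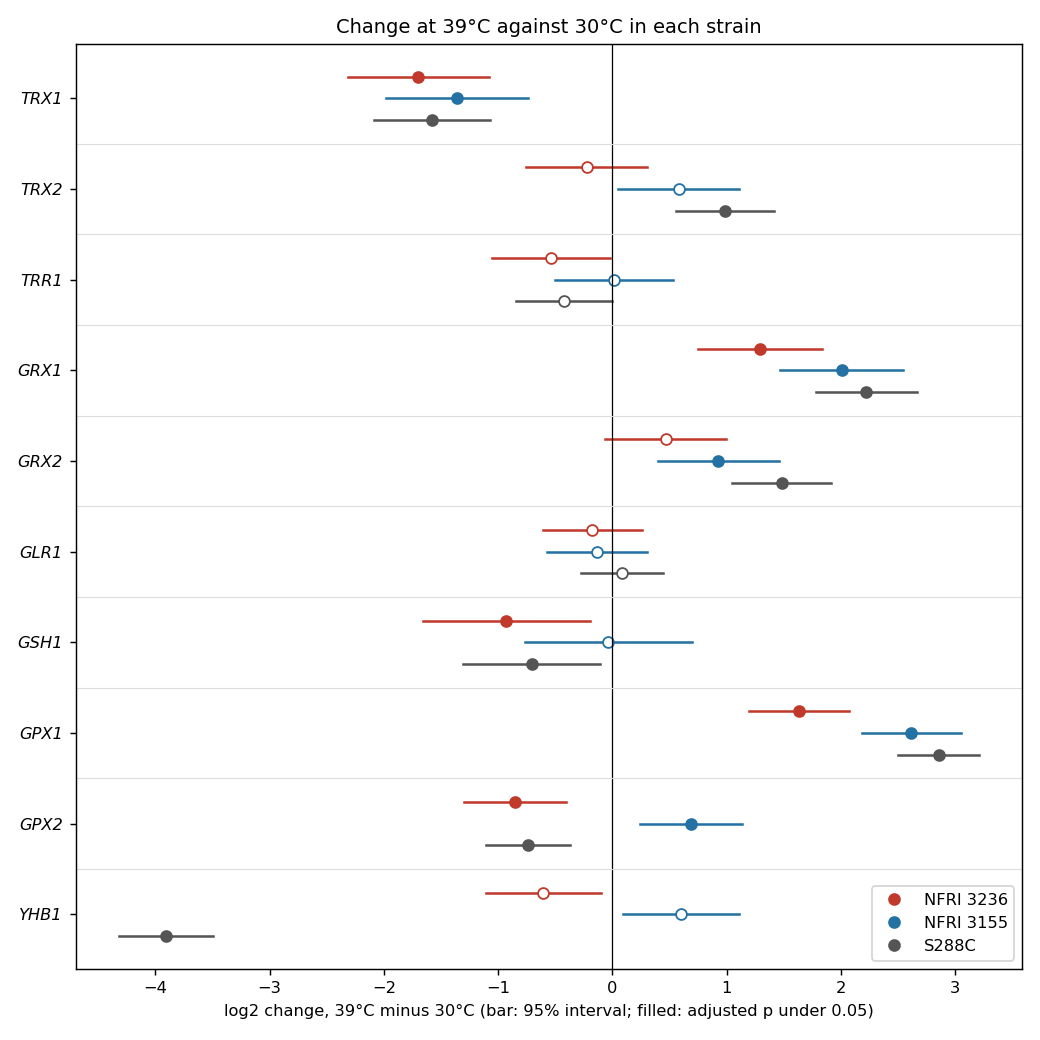
Log2 change of each gene at 39°C against 30°C in NFRI 3236, NFRI 3155 and S288C. Points are fitted changes, bars are 95% intervals and filled points have an adjusted p under 0.05. *GPX2* is on opposite sides of 0 in NFRI 3155 and the other strains, and *YHB1* in S288C lies at −3.91.

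Over the 3 tests between strains, the heat responses of 3 of the 10 genes differed between NFRI 3236 and S288C, where 10.1% of all genes were called (4.3% higher and 5.82% lower). They were *TRX2*, *GPX1* and *YHB1*. Between NFRI 3155 and S288C, 2 differed (*GPX2* and *YHB1*), where 16.5% of all genes were called (7.64% higher and 8.87% lower). Between NFRI 3236 and NFRI 3155, 1 differed (*GPX2*), where 2.5% of all genes were called (0.735% higher and 1.76% lower). The median difference of responses over the 10 genes was −0.24, 0.00 and −0.76 in these 3 tests, against −0.07, −0.06 and −0.03 over all genes. All 10 values for NFRI 3236 minus NFRI 3155 were below 0, as were 52.4% of all genes. With median scaling 8 of the 10 and 26.3% of all genes were below 0, without scaling 6 and 15.6%, and with quantile normalization 10 and 47.6%. These tests share arrays with each other and with the tests within strains.

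**Figure D3:**
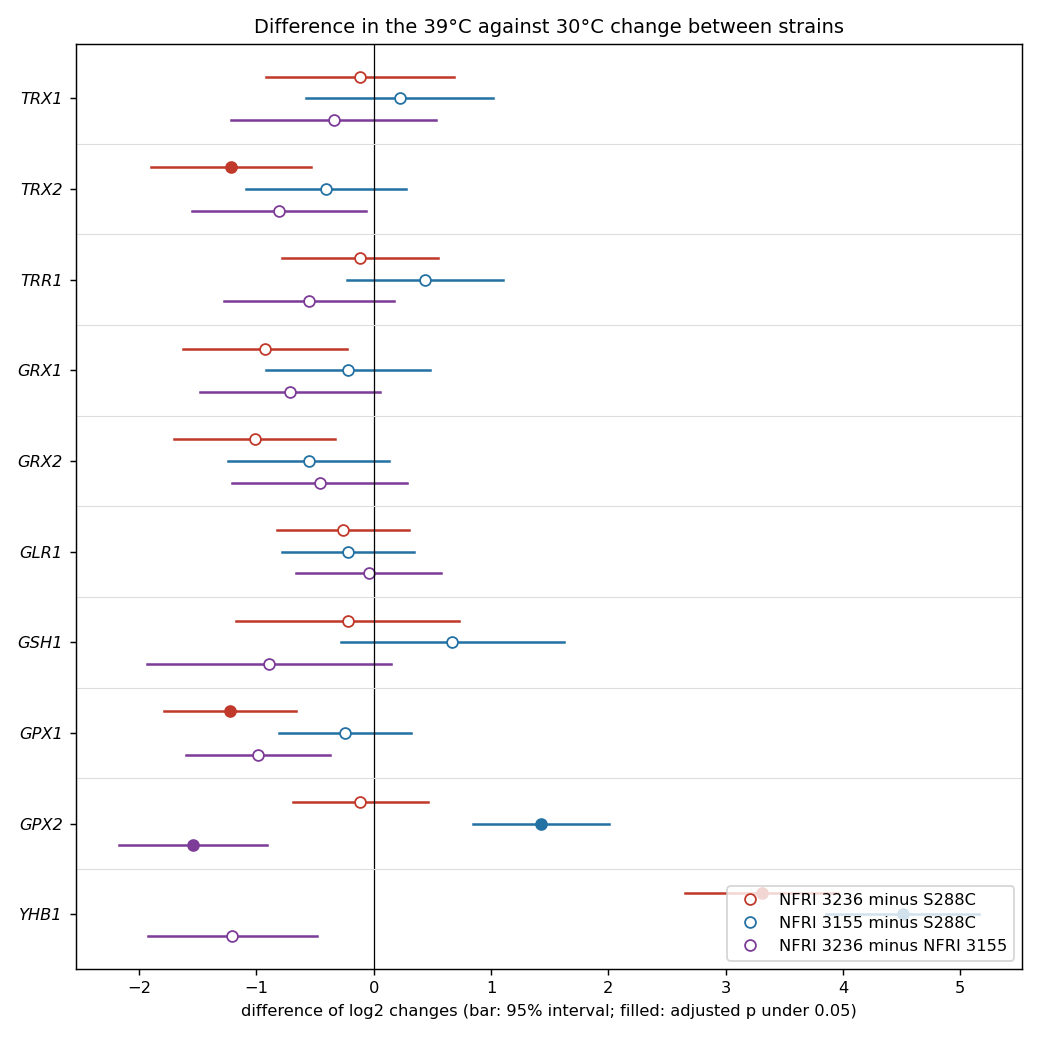
Difference of the log2 heat change between strains for each gene, with 95% intervals. Filled points have an adjusted p under 0.05. *YHB1* differed by 3.31 and 4.51 between the NFRI strains and S288C, while most other intervals include 0.

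Levels also differed between strains at the same temperature. At 39°C, 1 of the 10 genes was called between NFRI 3236 and S288C, where 28% of all genes were called (13.1% higher and 14.9% lower). Between NFRI 3155 and S288C 2 were called, where 44.7% of all genes were (21.6% higher and 23.1% lower), and between NFRI 3236 and NFRI 3155 1 was called, where 20.4% were (9.65% higher and 10.7% lower). At 30°C 4 of the 10 genes were called between NFRI 3236 and S288C, where 29.2% of all genes were called (15.4% higher and 13.8% lower). Between NFRI 3155 and S288C 4 were called, where 30.2% were (16.3% higher and 13.9% lower), and between NFRI 3236 and NFRI 3155 3 were called, where 8.91% were (4.45% higher and 4.46% lower). The median log2 differences of the 10 genes for NFRI 3236 minus S288C, NFRI 3155 minus S288C and NFRI 3236 minus NFRI 3155 were −0.25, 0.06 and −0.26 at 39°C, against −0.06, −0.04 and −0.01 over all genes. At 30°C they were 0.39, −0.04 and 0.45, against 0.04, 0.03 and 0.02. A difference in transcript level between strains and a difference in how well a strain's sequence matches the probes cannot be told apart here.

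*GSH1* was higher in both NFRI strains than in S288C at both temperatures. At 39°C it was 2.97-fold higher in NFRI 3236 (log2 difference 1.57 ± 0.31, adjusted p = 0.00256) and 3.93-fold higher in NFRI 3155 (1.98 ± 0.31, adjusted p = 0.000313). At 30°C it was 3.46-fold higher in NFRI 3236 (1.79 ± 0.31, adjusted p = 0.00109) and 2.47-fold higher in NFRI 3155 (1.30 ± 0.31, adjusted p = 0.00674). Of these 4 differences the last was lost without NFRI 3155 30°C replicate 1 (1.19, adjusted p = 0.0666), and the other 3 were called under every alternative run. In the order of *GSH1* levels, unheated NFRI 3236, unheated NFRI 3155, heated NFRI 3155 and heated NFRI 3236 followed each other without a called step, and unheated and then heated S288C each lay a called step lower.

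*YHB1* gave the largest strain differences among the 10 genes. At 39°C it was 5.34-fold higher in NFRI 3155 than in S288C (log2 difference 2.42 ± 0.21, adjusted p = 3.62e-06) and 0.163 times as high in NFRI 3236 as in NFRI 3155 (−2.61 ± 0.23, adjusted p = 7.03e-06). NFRI 3236 and S288C differed there by −0.20 (95% interval −0.66 to 0.26). At 30°C it was at 0.0881 times the S288C level in NFRI 3236 (−3.50 ± 0.21, adjusted p = 1.14e-07) and at 0.234 times in NFRI 3155 (−2.09 ± 0.21, adjusted p = 1.31e-05). NFRI 3236 was at 0.376 times the NFRI 3155 level (−1.41 ± 0.23, adjusted p = 0.00153). In the order of levels, unheated S288C came first, then heated and unheated NFRI 3155, which did not differ by the test, and then unheated NFRI 3236, heated S288C and heated NFRI 3236, of which no neighbours differed by the test.

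For *GPX1* and *GPX2* no pair of strains was called at 39°C. At 30°C *GPX2* was 0.362 times as high in NFRI 3155 as in S288C (log2 difference −1.47 ± 0.19, adjusted p = 9.3e-05) and 2.43-fold higher in NFRI 3236 than in NFRI 3155 (1.28 ± 0.21, adjusted p = 0.00127), both lost without scaling (−0.36 and 1.07). *GPX1* was 1.64-fold higher in NFRI 3236 than in S288C (0.72 ± 0.18, adjusted p = 0.0115) and 1.66-fold higher than in NFRI 3155 (0.73 ± 0.20, adjusted p = 0.0382). The *GPX1* difference from S288C was lost without NFRI 3236 30°C replicate 1 (0.56, adjusted p = 0.125) and with 16 added to each signal (0.36, adjusted p = 0.133). That from NFRI 3155 was lost without any one of 8 arrays, which were the 7 at 30°C and S288C 39°C replicate 2, with adjusted p up to 0.326, and with median scaling (0.56, adjusted p = 0.133), without scaling (0.52, adjusted p = 0.848), with 16 added (adjusted p = 0.0665), with only the compared arrays (adjusted p = 0.0647) and with the replicate block (adjusted p = 0.0779). *GPX1* at 39°C was 0.703 times as high in NFRI 3236 as in S288C (adjusted p = 0.0549).

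Among the remaining genes, *TRX2* at 30°C was 1.75-fold higher in NFRI 3236 than in S288C (log2 difference 0.81 ± 0.22, adjusted p = 0.0156). This was lost without NFRI 3236 30°C replicate 1 (0.60, adjusted p = 0.161) and with quantile normalization (0.34, adjusted p = 0.134). *GLR1* at 30°C was 1.44-fold higher in NFRI 3155 than in S288C (0.53 ± 0.18, adjusted p = 0.0453). This was lost without any one of 9 arrays, namely the 7 at 30°C and S288C 39°C replicates 2 and 3 (adjusted p up to 0.268), and with quantile normalization (0.42, adjusted p = 0.0877) and the replicate block (0.49, adjusted p = 0.101). *TRX1*, *TRR1*, *GRX1* and *GRX2* were called between no strains at either temperature. The *TRX1* levels differed by −0.12 (95% interval −0.68 to 0.45) between NFRI 3236 and S288C at 39°C and by 0.00 (−0.57 to 0.57) at 30°C.

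**Figure D4:**
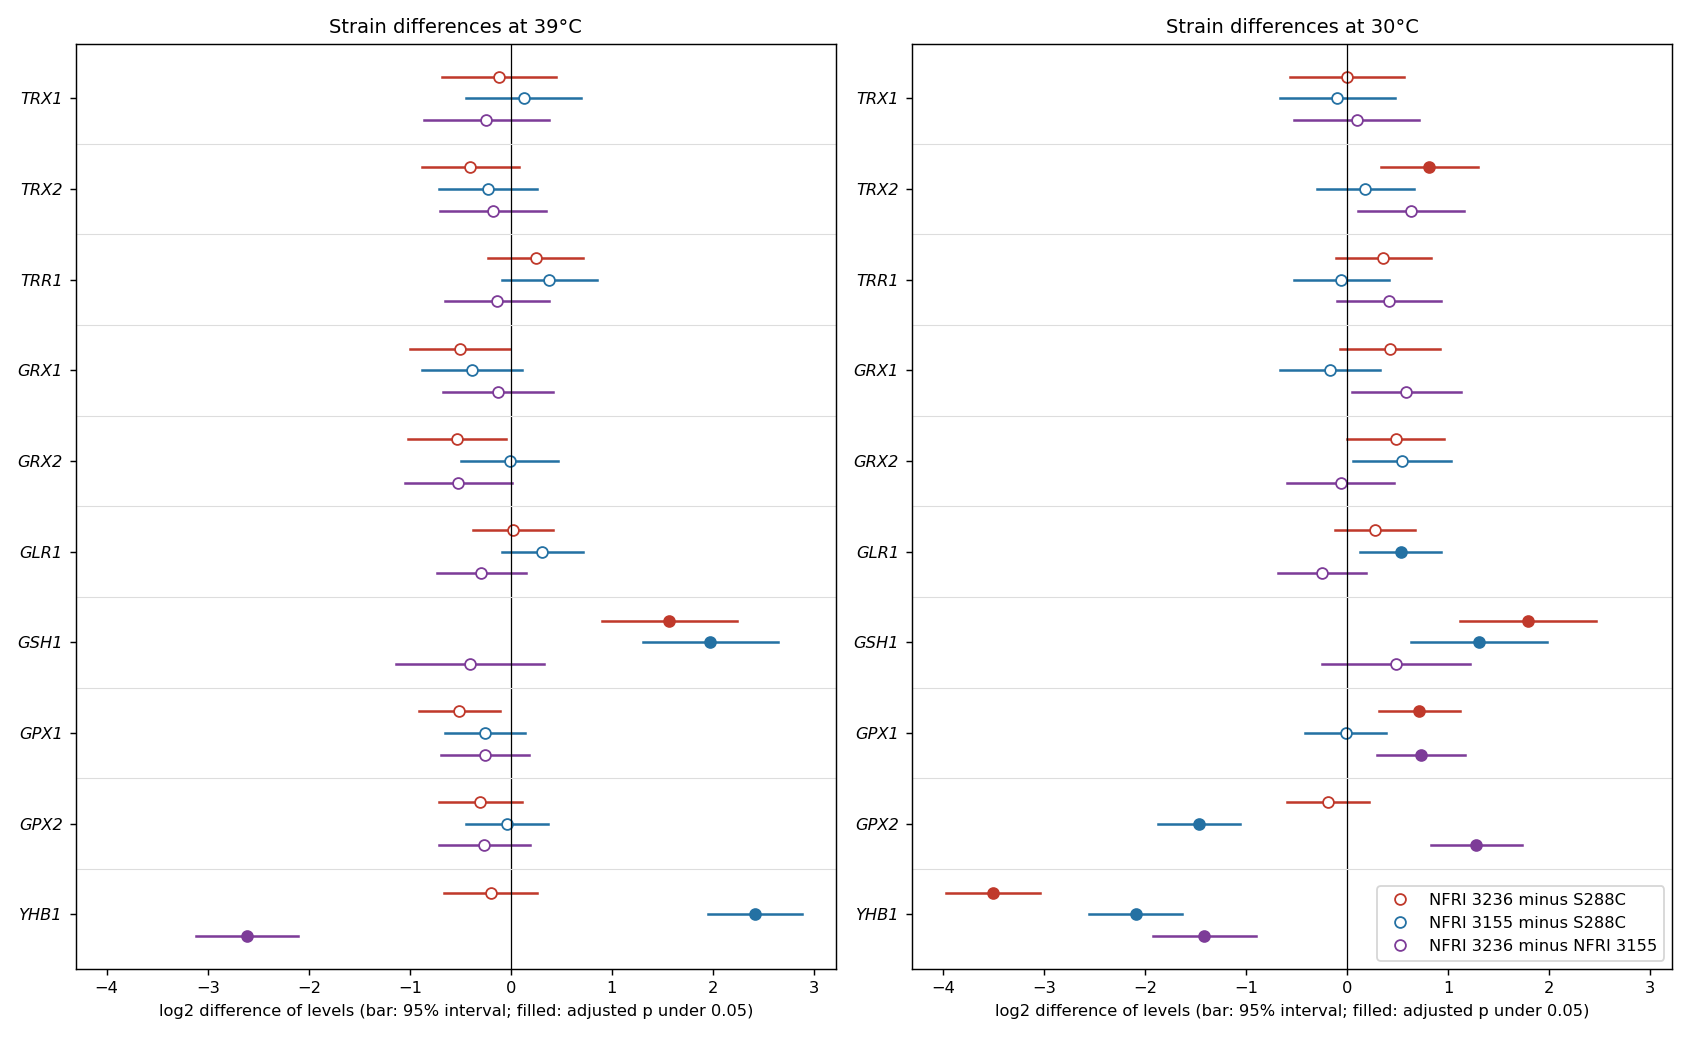
Log2 difference of levels between strains at 39°C (left) and 30°C (right), with 95% intervals. Filled points have an adjusted p under 0.05. *GSH1* lay above 0 against S288C in both NFRI strains at both temperatures, and the *YHB1* differences changed side between 39°C and 30°C in NFRI 3155.

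Other genes of these pathways were read from lists chosen by function, with earlier results of these data known. Of 10 further thioredoxin-system genes, 6 rose and 0 fell in NFRI 3236, 7 rose and 0 fell in NFRI 3155 and 8 rose and 0 fell in S288C, with median log2 changes of 1.21, 1.30 and 1.41 against −0.10, −0.08 and −0.04 over all genes. Of all genes 15.7% rose and 23.5% fell in NFRI 3236, 18.1% and 24.1% in NFRI 3155, and 25.2% and 28.2% in S288C. *PRX1*, the mitochondrial peroxiredoxin, rose 8.05-fold in NFRI 3236, 8.91-fold in NFRI 3155 and 10.2-fold in S288C. *TSA2*, a cytosolic peroxiredoxin, rose 2.82-fold in NFRI 3236, 10.4-fold in NFRI 3155 and 15.2-fold in S288C. Its response was smaller in NFRI 3236 than in S288C by 2.43 on the log2 scale (adjusted p = 0.000414) and than in NFRI 3155 by 1.89 (adjusted p = 0.00883), and both were lost without scaling. *TRX1* fell, while none of these other thioredoxin-system genes was called lower in any strain by limma, and none was lower at an unadjusted p under 0.05 (0 of 10 in each strain).

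Of 24 further glutathione-system genes, 9 rose and 6 fell in NFRI 3236, 9 rose and 2 fell in NFRI 3155 and 11 rose and 4 fell in S288C, with median changes of 0.59, 0.30 and 0.32. The shares of all genes in these strains were 15.7%, 18.1% and 25.2% higher and 23.5%, 24.1% and 28.2% lower. *ECM4*, a glutathione transferase of the omega class, rose 5.15-fold in NFRI 3236, 18.2-fold in NFRI 3155 and 4.36-fold in S288C. *GLO4*, the mitochondrial glyoxalase II, rose 2.51-fold in NFRI 3236, 3.84-fold in NFRI 3155 and 4.13-fold in S288C. The value of *GLO4* in NFRI 3236 (adjusted p = 0.0344) was lost without any one of its 4 arrays, with quantile normalization and with the replicate block, and that in NFRI 3155 without 30°C replicate 1 or 39°C replicate 1. *OPT1*, a glutathione transporter, was at 0.357 times in NFRI 3236, 0.599 times in NFRI 3155 and 0.214 times in S288C, and the value in NFRI 3155 was lost without 30°C replicate 1 or 2 or 39°C replicate 1, without scaling, with quantile normalization and with only its own arrays in the fit. *GRX4*, a monothiol glutaredoxin that takes part in iron regulation, fell to 0.307 times in NFRI 3236 and 0.320 times in S288C, and was at 0.654 times in NFRI 3155 (adjusted p = 0.0770). In NFRI 3236 neither *OPT1* nor *GRX4* was called without scaling.

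By limma 0 of the 24 glutathione-system genes differed in heat response between NFRI 3236 and S288C, where 10.1% of all genes were called. At an unadjusted limma p under 0.05, 10 of the 24 differed (5 higher and 5 lower). Between NFRI 3155 and S288C 5 of the 24 were called, all higher in NFRI 3155. Over all genes 16.5% were called there (7.64% higher and 8.87% lower). The 5 are named here after their values were seen: *GRX8*, *GTT1*, *GTT2*, *ECM4* and *OPT1*. Of these *OPT1* (1.48, adjusted p = 0.00662) held when any array was left out but was lost without scaling (1.10, adjusted p = 0.341), *GTT1* (1.16, adjusted p = 0.0180) was lost without NFRI 3155 30°C replicate 1 and without scaling, and *GRX8*, *GTT2* and *ECM4* (adjusted p = 0.0460, 0.0446 and 0.0406) were each lost without any one of 9 or more arrays and without scaling. Between NFRI 3236 and NFRI 3155 2 of 24 were called, both lower in NFRI 3236, against 2.5% of all genes. They were *GTT1* (−2.01, adjusted p = 0.00447), which held when any array was left out, and *GRX8* (−2.31, adjusted p = 0.0167), which was lost without NFRI 3155 30°C replicate 2 or either NFRI 3236 array at 30°C and with median scaling (adjusted p = 0.0563). Neither was called without scaling. *GTT1*, a glutathione transferase, was at 1.48-fold in NFRI 3236 (adjusted p = 0.0630) and rose to 5.98 times its unheated level in NFRI 3155 and to 2.68 times in S288C. *GRX8*, a glutaredoxin, had a geometric mean level of 1.55 in NFRI 3236 at 39°C, against 4.24 at 30°C, while in NFRI 3155 it was 0.793 at 39°C, against 0.435 at 30°C.

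Of 7 regulators, 1 rose and 1 fell in NFRI 3236, 3 rose and 1 fell in NFRI 3155 and 3 rose and 0 fell in S288C. Shares of all genes in the same order were 15.7%, 18.1% and 25.2% higher and 23.5%, 24.1% and 28.2% lower. *HSF1*, the heat shock factor, rose 1.69-fold in NFRI 3236, 1.97-fold in NFRI 3155 and 2.06-fold in S288C, and its call in NFRI 3236 was lost without NFRI 3236 30°C replicate 1 (adjusted p = 0.0621). *YAP1*, the oxidative stress regulator, was at 1.67-fold in NFRI 3236 (adjusted p = 0.0751) and rose to 2.05 times its unheated level in NFRI 3155 and to 2.35 times in S288C. The rise of *YAP1* in NFRI 3155 was lost without 30°C replicate 1 or 39°C replicate 2, with median scaling and with only its own arrays in the fit. *MSN4*, a general stress regulator, fell to 0.288 times in NFRI 3236 and 0.380 times in NFRI 3155 and was at 0.666 times in S288C (adjusted p = 0.154). Its fall in NFRI 3236 was lost without 30°C replicate 2 and in NFRI 3155 without 30°C replicate 1 or 2 or 39°C replicate 1 or with only its own arrays in the fit. Without scaling no regulator named here was called in NFRI 3155, nor was *MSN4* in NFRI 3236.

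The genes of NADPH supply held the widest changes. Of 8, 3 rose and 3 fell in NFRI 3236, 4 rose and 2 fell in NFRI 3155 and 3 rose and 1 fell in S288C. Among all genes 15.7%, 18.1% and 25.2% rose and 23.5%, 24.1% and 28.2% fell in these strains. *SOL4*, a 6-phosphogluconolactonase, rose 28.4-fold in NFRI 3236, 44.5-fold in NFRI 3155 and 145-fold in S288C. *GND2*, a 6-phosphogluconate dehydrogenase, rose 4.54-fold in NFRI 3236, 20.8-fold in NFRI 3155 and 15.0-fold in S288C, and its response was smaller in NFRI 3236 than in S288C (−1.72, adjusted p = 0.00146) and NFRI 3155 (−2.19, adjusted p = 0.00153), both lost without scaling. *ALD6*, a cytosolic acetaldehyde dehydrogenase that makes NADPH, fell to 0.192 times in NFRI 3236, 0.0896 times in NFRI 3155 and 0.186 times in S288C. *SOL3*, the related 6-phosphogluconolactonase, fell to 0.501 times in NFRI 3155 (adjusted p = 0.00388), a call lost without scaling. Its value in NFRI 3236, 0.650 times (adjusted p = 0.0496), was lost without any one of 9 arrays and had the opposite sign without scaling, and that in S288C was 0.740 times (adjusted p = 0.0709).

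**Figure D5:**
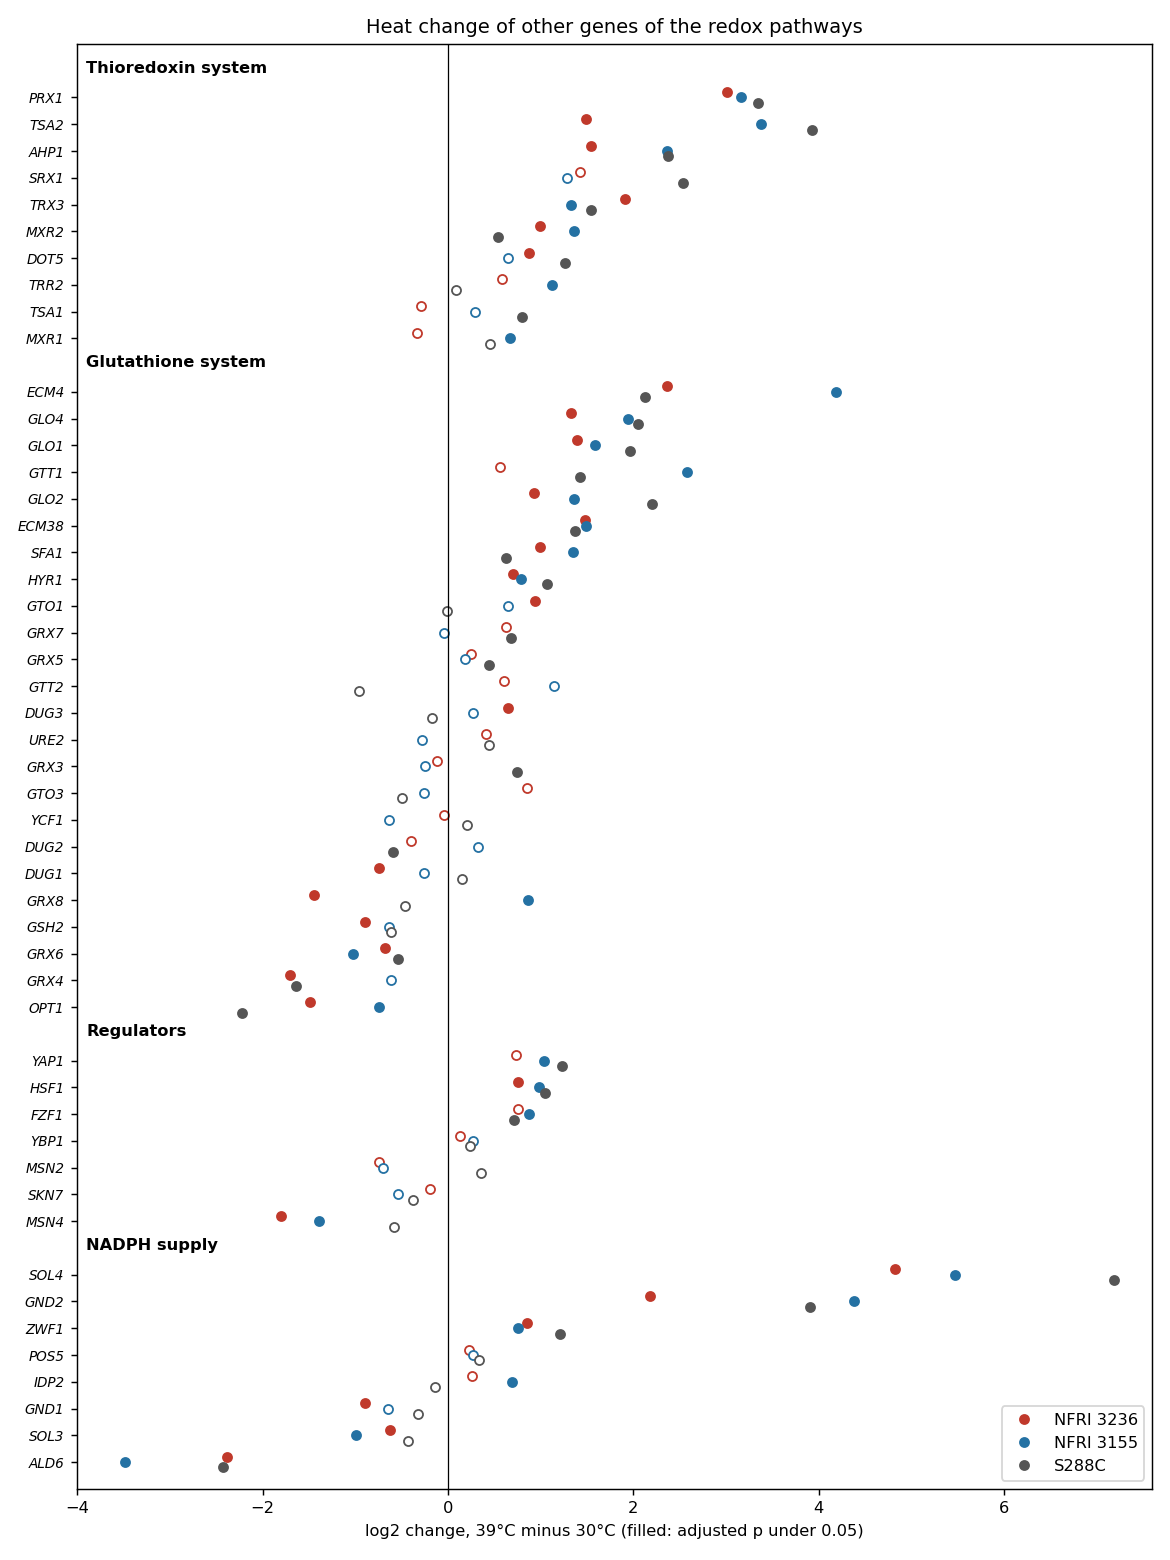
Log2 change at 39°C against 30°C of 49 other genes of the thioredoxin system, the glutathione system, their regulators and NADPH supply, in NFRI 3236, NFRI 3155 and S288C. Filled points have an adjusted p under 0.05. No thioredoxin-system gene has a filled point below 0, and *SOL4* and *ALD6* are at the ends of the range.

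Over the 14 arrays the levels of *GRX1* and *GPX1* moved closely together (Pearson r = 0.987), as did *GRX2* and *GPX1* (0.905) and *GRX1* and *GRX2* (0.904). *TRX1* ran opposite to *GPX1* (r = −0.91). These values describe arrays that share strains and temperatures, and carry no p. Among all genes tested, the one most like *TRX1* was *RPS10B*, a ribosomal protein gene (r = 0.983), and the one most like *YHB1* was *ODC1*, a mitochondrial oxodicarboxylate carrier (r = 0.974). *RPS10B* and *ODC1* were also first with median scaling and with quantile normalization, though neither was without scaling. *GPX1* was most like *ADD37* (r = 0.991), which was first under each scaling except quantile normalization. The most similar genes of *GRX1* (*STF2*, r = 0.991) and *GSH1* (*YOL057W*, r = 0.97) were first with median scaling but not with quantile normalization. Those of *TRX2* (*HCH1*, r = 0.918), *TRR1* (*TRK1*, r = 0.876), *GLR1* (*CSE1*, r = 0.93), *GRX2* (*RGI1*, r = 0.963) and *GPX2* (*ZRT2*, r = 0.862) differed under each other scaling.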

How the data were processed

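Each of the 14 samples is 1 Affymetrix GeneChip array. By the methods it was hybridised with labelled cDNA made from mRNA of independently grown yeast cells. The authors deposited 1 linear signal intensity per probe set, made with GCOS per the labels and with no further scaling stated. Probe sets were named through the platform annotation, in which each of the 10 genes has 1 probe set. No genome or sequence was used, so no coordinates or sequences are given, and cross-hybridisation between related genes was not tested.

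Signals below 1 were set to 1, taken to log2 and shifted so that the 75th percentile of all 10928 probe sets was 0 on each array. A gene entered the tests if all arrays of some group had it above their 20th percentile, which left out 6 of 5449. Where probe sets shared a gene, the brightest was used. Background was the 95th percentile of 1746 *Schizosaccharomyces pombe* probe sets on the array. Differences were fitted with limma 3.58.1 (R 4.3.3) in 1 model with 6 group means, empirical Bayes moderation and two-sided tests. The code was tested on simulated data. Precision is set by the number of arrays, with a median posterior SD (log2) of 0.27 and 8 residual plus 5.10 prior degrees of freedom.

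The members and lists were chosen with earlier results of these data known. Named list genes are the largest called changes, up to 2 in each direction per list, by the mean over the strains. Alternatives covered scaling, offset, filter, probe rule, variance, arrays in the fit, each array left out, a replicate block and the methods' t-test.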

Additional observations from a re-analysis of the deposited data

Results flagged for a closer look

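In 6 tests the heat response of a gene differed between strains.

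For *YHB1* the response was 3.31 higher in NFRI 3236 than in S288C on the log2 scale (adjusted p = 4.89e-05, limma) and 4.51 higher in NFRI 3155 than in S288C (adjusted p = 7.43e-06). The unheated S288C level, 19.6 to 21.8 on 3 arrays, enters both, and those 3 arrays are the ones with 0, 0 and 1 poly-A control probe sets above background. On the heated S288C arrays the level was 1.27 to 1.45.

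For *GPX2* the response was 1.43 higher in NFRI 3155 than in S288C (adjusted p = 0.00429) and differed by −1.54 between NFRI 3236 and NFRI 3155 (adjusted p = 0.0136). Both heated NFRI 3155 arrays were above both unheated ones, and the opposite held in the other strains.

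For *TRX2* and *GPX1* the response differed by −1.21 (adjusted p = 0.0299) and −1.22 (adjusted p = 0.0131) between NFRI 3236 and S288C.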

How the results depend on the processing

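Over 2940 values of the 10 genes under other settings or with an array left out, no gene called in the reported fit changed sign. Many of these values could not change sign. Filters, the probe rule, variance settings, t-tests and arrays outside a comparison do not alter the estimated difference. Only the scalings, the offset, the replicate block and left-out arrays of the groups compared could. Among settings other than left-out arrays, 1159 values kept their call, 42 gained one, 53 lost one and 6 had the opposite sign with a call that the reported fit did not make. With an array left out, 1610 kept their call, 18 gained and 52 lost one. A further 119 values changed sign while called under neither setting and are counted as kept. The 6 of opposite sign were *TRX2* at 39°C against 30°C in NFRI 3236 with quantile normalization (0.92) and, without scaling, *TRX1* (1.01), *TRR1* (1.05), *GRX1* (0.94) and *GPX1* (1.09) between NFRI 3155 and S288C at 30°C and *TRX1* (1.02) between NFRI 3236 and S288C at 39°C. Among the other pathway genes, whose settings were added after seeing the data, *SOL3* in NFRI 3236 was 0.22 without scaling. The scalings tried for the most similar genes were added after seeing the data too. Scaling subtracts 1 value per array, so leaving it out moves every gene of a comparison by the same amount. That shift was 1.11 for NFRI 3155 minus S288C at 30°C and 1.13 for NFRI 3236 minus S288C at 39°C. The cause of this shift and of the other moves was not tested.

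The number of the 10 genes called moved as follows, with the share of all genes called in brackets. Without scaling it was 3 (29.5%) in NFRI 3236 and 2 (20.1%) in NFRI 3155 for heat, 1 (1.12%), 1 (3.16%) and 0 (0.441%) for the response differences NFRI 3236 minus S288C, NFRI 3155 minus S288C and NFRI 3236 minus NFRI 3155, 8 (45.9%), 9 (60.2%) and 1 (3.53%) for the strain differences in that order at 30°C, and 4 (56.9%) and 4 (36.7%) against S288C at 39°C. Median scaling gave 3 (43.4%) for heat in NFRI 3155, 1 (12%) for the response NFRI 3236 minus S288C, 0 (2.83%) for NFRI 3236 minus NFRI 3155, and 3 (42%) and 4 (45.5%) against S288C at 39°C. Quantile normalization gave 2 (2.44%) for the response NFRI 3236 minus NFRI 3155, 3 (30.3%) for NFRI 3236 minus S288C at 39°C and 2 (21.2%) for NFRI 3236 minus NFRI 3155 at 39°C. For the response NFRI 3236 minus NFRI 3155 the count was 2 (3.86%) with 16 added to each signal, 2 (3.16%) with a variance trend and 0 (1.1%) with only the compared arrays. The methods' t-test after Benjamini-Hochberg adjustment called 0 of the 10 and 0 of all genes for heat in each NFRI strain, and 8 (44.9%) in S288C. At its unadjusted threshold it called 4 (29.4%) in NFRI 3236 and 6 (32.8%) in NFRI 3155.

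With each S288C array left out in turn, the count was 4 to 5 for heat in NFRI 3236, 5 to 6 in NFRI 3155 and 7 to 8 in S288C. It was 2 to 5, 2 to 2 and 1 to 1 for the response differences in the order above. For strains it was 4 to 5, 3 to 5 and 2 to 3 at 30°C, and 1 to 4, 2 to 3 and 1 to 1 at 39°C. The largest moves among these fits came without S288C 39°C replicate 3. The share of all genes called moved too, and whether the counts moved more than that share was not tested. With an S288C array left out, the share was 36.6% to 42.9% for heat in NFRI 3236. It was 39.9% to 46.6% in NFRI 3155 and 45.3% to 50.5% in S288C. For the response differences it was 5.92% to 9.22%, 10.8% to 17% and 1.78% to 3.07%. For the strain differences in that order it was 21% to 34.1%, 22.6% to 35.6% and 7.79% to 10.3% at 30°C. At 39°C it was 23.3% to 26.5%, 39.5% to 43.9% and 17.1% to 25.2%. Fits without an NFRI array keep only 1 array in a group, so neither count nor share is given for them here.

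Arrays with the same replicate number did not deviate together from their group means (r between −0.08 and 0.05), so the numbers were not taken as pairs. With the replicate number as a block, the count was 1 (5.25%) for the response NFRI 3236 minus S288C and 0 (1.52%) for NFRI 3236 minus NFRI 3155. The shift of the median of all genes without scaling was 0.84, 0.21 and 0.60 for heat in NFRI 3236, NFRI 3155 and S288C, and with median scaling it was 0.11, −0.28 and −0.24. The array median was taken over all 10928 probe sets, of which 5498 name a single *S. cerevisiae* gene. For NFRI 3236 minus S288C at 39°C median scaling shifted the median of all genes by 0.52. It called 1984 genes higher and 300 lower there, against 714 and 812 in the reported fit. The number of arrays, 2 or 3 a group, limits what small differences could be called.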
